A study of Homo sapiens with 6 samples.

Results

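The genes of 4 metalloproteinase families were examined: the matrix metalloproteinases (MMPs), the membrane-anchored ADAMs, the secreted ADAMTS enzymes and their tissue inhibitors (TIMPs). Members were matched by symbol, as MMP, ADAM or ADAMTS followed by a number, or TIMP1 to TIMP4. The families themselves were chosen with earlier results of these data known. This gave 69 named entries in 72 of the 24108 rows of the expression table, of which 24 were MMPs, 22 ADAMs, 19 ADAMTS enzymes and 4 TIMPs. MMP24, MMP25 and TIMP2 had a pair of rows each, and 1 entry joined MMP23A with MMP23B.

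The RNA came from MDA-MB-231, an established basal, triple-negative human breast cancer cell line. The 3 control libraries (shCtr) were from cells transduced with a lentiviral hairpin against luciferase, and the 3 knockdown libraries (shZNF148) from cells transduced with a lentiviral hairpin against the zinc finger transcription factor ZNF148. All 6 samples were transduced for 48 h and kept for 24 h in 0.5 µg/ml puromycin, so both groups carried a hairpin and a resistance cassette. Because there was 1 hairpin a group, loss of ZNF148 and any other effect of that hairpin or virus cannot be told apart.

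MMPs and ADAMTS enzymes are zinc-dependent proteases that cut collagens, proteoglycans and other proteins outside the cell, whereas ADAMs cut the outer parts of membrane proteins free from the cell surface. They are made as inactive precursors, and many of them are blocked by TIMPs, which bind to the active site. In breast tumors this system is known for remodelling the matrix around invading cells and for releasing growth factors and their receptors.

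Values are FPKM, in which fragments are counted per kilobase of transcript and relative to all mapped fragments. They are measures per length, so levels can be set side by side between genes. The summed FPKM was between 469594 and 507312 per library. Read totals are not given, and the relative depth read from the steps of low values ran from 0.806 to 1.13 of that of shCtr replicate 1. VIM, a mesenchymal marker of this line, was between 1507 and 1842 FPKM, while ESR1, the estrogen receptor, was listed at 0 in all 6 libraries. ERBB2, which this line is known to carry at a low level, shares its row with MIR4728, and that row was at 20.1, 126 and 20.1 FPKM in shCtr replicates 1, 2 and 3 and at 24.8, 125 and 21.9 FPKM in the same replicates of shZNF148. It was thus high in replicate 2 of both groups. The targeted gene, ZNF148, was lower in each shZNF148 library than in any control, at 16.4% of the control mean. Replicate 2 of shZNF148 stood apart from the rest of its group, with 2.36% of tested rows lying more than 1 log2 unit from the mean of the other libraries of that group, against 1.22% to 1.55% for the other 5 libraries.

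Of the 69 entries, 25 had a mean of at least 1 FPKM and were tested, 29 were above 0 in some library but below that mean, and 15 were listed at 0 throughout. Log2 fold changes are given with their standard error (SE). A gene was called when its adjusted p from limma was under 0.05 and its change exceeded 1.5-fold, both on the log2(FPKM + 1) scale, which understates the change of low genes. MMP8, ADAM28, TIMP3 and ADAMTS15 rose, and MMP1, ADAM9, MMP15 and ADAMTS16 fell. These 8 of 25 members (32.0%) compare with 5.49% of all 11777 tested rows called in either direction, 1.83% higher and 3.66% lower. The families were chosen with earlier results known, and this difference in share was not tested. MMP8 is in this count although its control mean was under 1 FPKM, so that it reached the minimum through its shZNF148 values. The median log2 fold change of the 25 was -0.08, beside 0.01 over all tested rows, and the median size of the change was 0.33, beside 0.19. The families did not move as blocks, since 11 members had a positive and 14 a negative log2 fold change and each protease family held a member that rose and a member that fell. In 14 members (56.0%) the groups did not overlap, all 3 libraries of one being above those of the other, which was the case for 41.0% of all tested rows. Of these, 6 were higher in shZNF148 (20.0% of all tested rows) and 8 lower (21.0%). MMP8 is in this count too, as is ADAM11, whose shZNF148 mean was 0.713 FPKM. Each of these genes reached the minimum only through the group in which it was higher.

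**Figure D1:**
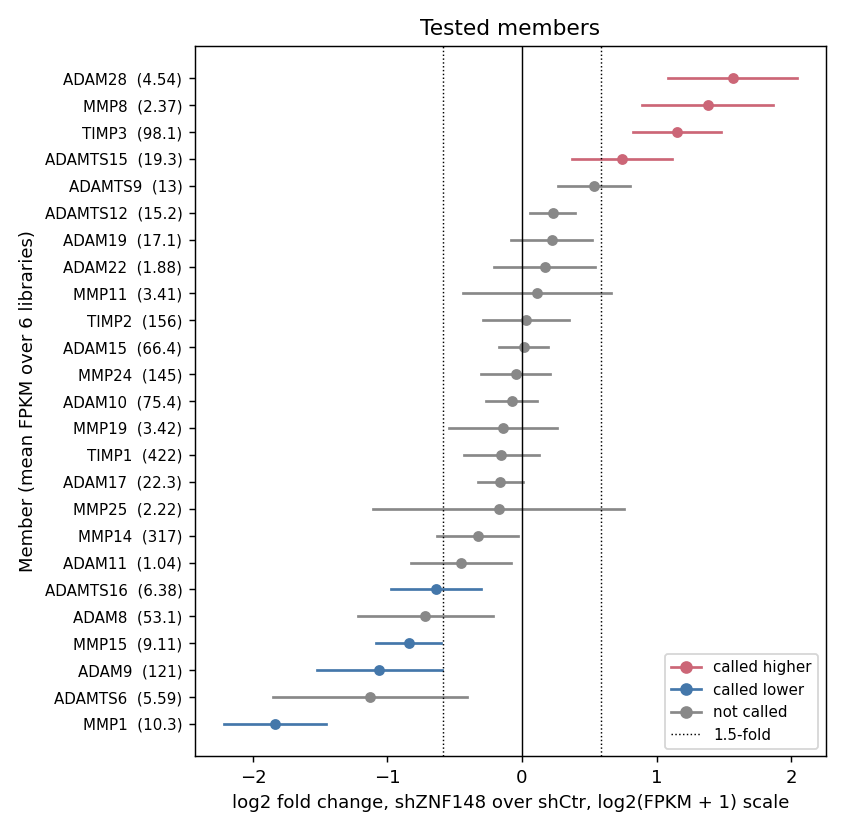
Each of the 25 tested members is a row, ordered by its log2 fold change of shZNF148 over shCtr on the horizontal axis (log2(FPKM + 1) scale), with its mean FPKM over the 6 libraries in parentheses. Points are limma estimates, bars are 95% confidence intervals and dotted lines mark 1.5-fold; the called members run from ADAM28 (1.57) at the top to MMP1 (-1.84) at the bottom, and TIMP2, ADAM15, MMP24 and ADAM10 lie near 0.

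RefSeq promoter windows of the GRCh38.p14 assembly, from 250 bases before to 50 after the start site, were found for 38 of the 69 members, among them 3 called genes, MMP15, MMP8 and TIMP3. ZNF148 is known to bind GC-rich DNA, so the windows were searched on both strands for the GC-rich word GGGGNGGGG and for the AP-1 site TGANTCA, known from MMP promoters. The 3 called windows are shown to compare a gene that fell with 2 that rose. They lie at chr16:58025504-58025803 on the plus strand (MMP15), at chr22:32801455-32801754 on the plus strand (TIMP3) and at chr11:102724905-102725204 on the minus strand (MMP8). Each is given 5′ to 3′ on the gene's strand, with capitals marking the GC-rich word.
MMP15: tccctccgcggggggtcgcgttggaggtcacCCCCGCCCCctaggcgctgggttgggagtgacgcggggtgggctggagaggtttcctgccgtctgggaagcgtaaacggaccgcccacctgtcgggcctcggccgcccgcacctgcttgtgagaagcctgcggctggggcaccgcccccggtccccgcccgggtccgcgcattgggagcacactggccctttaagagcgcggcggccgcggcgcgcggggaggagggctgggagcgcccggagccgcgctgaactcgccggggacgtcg
TIMP3: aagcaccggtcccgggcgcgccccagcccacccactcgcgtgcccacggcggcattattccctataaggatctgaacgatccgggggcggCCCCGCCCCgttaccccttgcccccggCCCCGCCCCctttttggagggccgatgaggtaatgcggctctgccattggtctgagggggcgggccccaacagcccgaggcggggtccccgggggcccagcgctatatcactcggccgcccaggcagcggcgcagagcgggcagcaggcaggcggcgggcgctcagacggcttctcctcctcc
MMP8: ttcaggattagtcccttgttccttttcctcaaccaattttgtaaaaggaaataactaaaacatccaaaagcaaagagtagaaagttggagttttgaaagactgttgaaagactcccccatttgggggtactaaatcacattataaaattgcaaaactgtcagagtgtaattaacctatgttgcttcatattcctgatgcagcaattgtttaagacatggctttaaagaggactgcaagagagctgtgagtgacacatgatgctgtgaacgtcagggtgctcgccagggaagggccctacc
The window of MMP15, which fell, held the GC-rich word 1 time, and that of TIMP3, which rose, held it 2 times. The window of MMP8, which also rose, held none. Their GC contents were 75.3%, 72.7% and 40.7%, respectively. The word was in 18 of the 38 member windows (47.4%), against 24.8% of all 27305 windows of this length. Among expressed genes the figures were 11 of 15 tested members (73.3%) and 38.6% of the 7848 windows of tested rows, with median GC contents of 72.7% and 65.7%. The AP-1 site was in 4 member windows (10.5%), against 7.76% of all windows, and in none of the 3 shown. A match to these letters is a description of the sequence and not evidence of binding.

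Among the collagenases, which cleave fibrillar collagen, MMP1 and MMP8 moved in opposite directions. MMP1, the interstitial collagenase, was at 19.7, 15.6 and 14.7 FPKM in shCtr (values here and below are in the order of replicates 1, 2 and 3) and at 4.56, 3.03 and 4.28 FPKM in shZNF148. All knockdown values lay far below the lowest control value. The mean fell from 16.7 ± 2.64 to 3.96 ± 0.811 FPKM (n = 3 each, SD), or to 23.7% of the control. Its log2 fold change was -1.84 (SE 0.16, limma adjusted p = 0.00657), and MMP1 was called under each of the 16 alternative settings, with values between -2.06 and -1.27. The pseudogene WTAPP1 is annotated on the opposite strand and overlaps MMP1, and reads shared with it were not tested.

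MMP8, the neutrophil collagenase, was at 0.706, 0.763 and 1.08 FPKM in shCtr and at 4.59, 2.57 and 4.54 FPKM in shZNF148. The groups did not overlap, and the knockdown value nearest to the controls was that of replicate 2. The means were 0.851 ± 0.204 and 3.90 ± 1.15 FPKM (n = 3 each, SD), a log2 fold change of 1.38 (SE 0.20, limma adjusted p = 0.0161). The control mean of MMP8 was under the 1 FPKM minimum, so the gene entered the test through its shZNF148 values. With a pseudocount of 0.1 FPKM its log2 fold change was 2.05, and with 5 FPKM it was 0.60. The ratio of MMP8 to MMP1 was 0.0359, 0.0488 and 0.0735 in shCtr and 1.01, 0.845 and 1.06 in shZNF148, so that transcripts of the 2 collagenases were about equally abundant after knockdown.

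MMP8 is best known from myeloid cells, and macrophage markers were therefore read beside it. The summed FPKM of 6 such markers was 2.75 to 4.24 in shCtr and 7.07 to 10.8 in shZNF148. Of the 2 markers that could be tested, LYZ, the secreted enzyme lysozyme, was called higher (log2 fold change 1.31, limma adjusted p = 0.0267), but its control mean of 0.627 FPKM was under the minimum and it entered the test through its shZNF148 values. CSF1R, the receptor for macrophage colony-stimulating factor, was also called higher, at 0.65 (limma adjusted p = 0.0402). Both calls were lost when the replicate number was entered as a block (adjusted p = 0.063 for LYZ and 0.0831 for CSF1R), without shCtr replicate 1 (0.1 and 0.121) or 3 (0.0854 and 0.122) and without shZNF148 replicate 1 (0.0536 and 0.1). That of LYZ was also lost without shCtr replicate 2 (0.0797), and that of CSF1R without shZNF148 replicate 2 (0.0564) or 3 (0.0751) and with no filter on low values (0.0612). With a pseudocount of 5 FPKM both changes were under 1.5-fold. LYZ was highest in shZNF148 replicate 2, at 4.97 FPKM against 2.34 and 2.23 FPKM in replicates 1 and 3, whereas MMP8 was lowest in replicate 2. CD14 was too low to test. It was at 0.470, 0.863 and 0.745 FPKM in shCtr and 0.750, 2.01 and 0.972 FPKM in shZNF148, with overlapping groups. PTPRC, the pan-leukocyte antigen, was at most 0.115 FPKM and listed at 0 in all 3 shZNF148 libraries, AIF1 was listed at 0 in all 6 libraries, and CD163 did not exceed 0.0254 FPKM. In bulk RNA, more cells of a type and more RNA per cell cannot be told apart.

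MMP1 and MMP8 lie in a cluster of MMP genes on chromosome 11. In the order of the RefSeq annotation the cluster runs from MMP7 through MMP20, MMP27, MMP8, MMP10, MMP1, MMP3 and MMP12 to MMP13. Of these 9 genes, only MMP8 and MMP1 reached the expression minimum. MMP10, which sits between them, was listed at 0 in all 6 libraries, as were MMP7, MMP20 and MMP27. MMP3, a stromelysin, had means of 0.242 and 0.188 FPKM in shCtr and shZNF148, and those of MMP13, the remaining collagenase, were 0.0414 and 0.122 FPKM.

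Of the membrane-type MMPs, which act at the cell surface, MMP15 fell and MMP14 did not pass the test. MMP15 was at 12.7, 11.8 and 11.5 FPKM in shCtr and at 6.19, 7.09 and 5.50 FPKM in shZNF148. These groups were well apart, and each held its values within a narrow range. The mean fell from 12.0 ± 0.620 to 6.26 ± 0.795 FPKM (n = 3 each, SD), a log2 fold change of -0.84 (SE 0.10, limma adjusted p = 0.0111).

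MMP14, an activator of pro-MMP2 at the cell surface, was the most abundant MMP, at 363, 354 and 338 FPKM in shCtr and 254, 343 and 251 FPKM in shZNF148. Replicates 1 and 3 of shZNF148 lay below all controls, whereas replicate 2 lay within their range. For MMP14 the log2 fold change was -0.33 (SE 0.13, limma adjusted p = 0.123). Without shZNF148 replicate 2 it was -0.48 with an adjusted p of 0.00809, which is still under 1.5-fold. MMP24, another membrane-type enzyme, was listed at 150, 148 and 142 FPKM in shCtr and 132, 168 and 128 FPKM in shZNF148 (log2 fold change -0.05, adjusted p = 0.786). That row is uncertain, because MMP24OS is annotated on the opposite strand of the same locus and the use of strand in counting is not stated. The second row of MMP24 did not exceed 0.584 FPKM.

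The other tested MMPs were low and none was called. MMP11, a stromelysin, had means of 3.25 and 3.58 FPKM in shCtr and shZNF148, MMP19 had 3.60 and 3.23 FPKM, and MMP25, a leukocyte membrane-type enzyme, had 2.56 and 1.88 FPKM. The mean of MMP25 in shCtr rested on replicate 3, at 5.01 FPKM, against 1.39 and 1.27 FPKM in replicates 1 and 2. MMP17, below the minimum mean, was at 1.02, 0.747 and 0.484 FPKM in shCtr and 0.720, 1.23 and 0.694 FPKM in shZNF148, with overlapping groups.

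The gelatinases, which digest basement membrane and denatured collagen, were below the minimum and untested. MMP9 was at 0.683, 0.917 and 0.750 FPKM in shCtr and 0.745, 0.0471 and 0.522 FPKM in shZNF148. MMP2 was at 0.106, 0.972 and 0.134 FPKM in shCtr and 0.0625, 0.0948 and 0.351 FPKM in shZNF148. Neither gelatinase separated the groups. The high MMP2 value was in shCtr replicate 2, the only library in which the fibroblast matrix gene DCN was above 0 (2.82 FPKM). The fibroblast markers LUM, PDGFRA and FAP were also highest there, but near the floor, at 0.323, 0.162 and 0.0406 FPKM. PDGFRB, the only fibroblast marker that could be tested, went the other way, at 6.67, 5.41 and 5.84 FPKM in shCtr. The part of fibroblast RNA in that value was not tested.

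The ADAMs were led by ADAM9, a widely expressed sheddase, and its transcript fell. ADAM9 was at 156, 162 and 169 FPKM in shCtr and at 91.8, 55.1 and 91.6 FPKM in shZNF148. The controls were close together, and replicate 2 was the lowest knockdown library by a wide margin. The mean fell from 163 ± 6.39 to 79.5 ± 21.1 FPKM (n = 3 each, SD), to 48.9% of the control. On the log2 scale the change of ADAM9 was -1.06 (SE 0.19, limma adjusted p = 0.0233), and without shZNF148 replicate 2 it was -0.82 (adjusted p = 0.0031). TM2D2, a neighbor annotated on the opposite strand and overlapping ADAM9, was between 10.4 and 12.2 FPKM in all libraries (log2 fold change 0.09, adjusted p = 0.463).

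ADAM28, a sheddase known from lymphocytes and some carcinomas, had the largest positive log2 fold change of the tested members at the pseudocount of 1 FPKM, while at 0.1 FPKM its 1.98 was below the 2.05 of MMP8. It was at 1.25, 2.22 and 1.89 FPKM in shCtr and at 6.21, 9.47 and 6.19 FPKM in shZNF148. The lowest knockdown value was above the highest control value by more than the range of the controls. The means were 1.79 ± 0.493 and 7.29 ± 1.89 FPKM (n = 3 each, SD), or 408% of the control, with a log2 fold change of 1.57 (SE 0.20, limma adjusted p = 0.0118). Although ADAM28 rose and ADAM9 fell, ADAM28 remained a small part of the family, at 2.36% of the summed ADAM FPKM in shZNF148. The noncoding gene ADAM7-AS1 is annotated on the opposite strand and overlaps ADAM28, and reads shared with it were not tested.

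ADAM8, an enzyme induced in inflammation and in some breast tumors, was at 69.6, 67.8 and 59.2 FPKM in shCtr and 36.2, 55.6 and 30.2 FPKM in shZNF148. All knockdown values were below all controls, with replicate 2 nearest to them. A log2 fold change of -0.72 (SE 0.21) did not pass (adjusted p = 0.0656). Without shZNF148 replicate 2 the log2 fold change of ADAM8 was -0.96 and it was called (adjusted p = 0.00815).

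The major constitutive sheddases were near their control levels. ADAM10, which sheds Notch receptors and cadherins, was at 77.3 ± 2.17 FPKM in shCtr and 73.5 ± 6.55 FPKM in shZNF148 (n = 3 each, SD), with a 95% interval of the fold change from 0.833 to 1.08. ADAM15, an ADAM with an integrin-binding motif, was at 66.0 ± 1.38 and 66.7 ± 5.89 FPKM, with an interval from 0.889 to 1.14. For ADAM10 and ADAM15 these intervals leave out a 1.5-fold change in either direction. ADAM17, the sheddase of TNF and of EGF receptor ligands, was at 23.6, 23.8 and 23.2 FPKM in shCtr and 21.8, 19.4 and 21.7 FPKM in shZNF148. Its groups did not overlap, but the log2 fold change of -0.16 did not pass (adjusted p = 0.159).

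ADAM19, which processes neuregulins, was at 15.7 ± 0.729 FPKM in shCtr and 18.6 ± 3.12 FPKM in shZNF148 (n = 3 each, SD; log2 fold change 0.22, adjusted p = 0.263). The 2 tested ADAMs without protease activity, ADAM11 and ADAM22, had log2 fold changes of -0.46 and 0.17 (adjusted p = 0.0957 and 0.487). ADAM1, whose human copies are pseudogenes, did not reach the minimum mean. It was at 0.553, 0.507 and 0.526 FPKM in shCtr and 0.866, 1.03 and 0.897 FPKM in shZNF148, and the groups did not overlap.

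All 5 tested ADAMTS enzymes had groups that did not overlap, and 2 of them were called, beside 41.0% and 5.49% of all tested rows. ADAMTS15, a proteoglycanase that cuts versican and aggrecan, was at 13.0, 15.2 and 14.0 FPKM in shCtr and at 22.3, 31.1 and 20.5 FPKM in shZNF148. Replicate 2 was the highest knockdown library. The mean rose from 14.1 ± 1.11 to 24.6 ± 5.68 FPKM (n = 3 each, SD), a log2 fold change of 0.75 (SE 0.16, limma adjusted p = 0.0311). Without shZNF148 replicate 2 the log2 fold change was 0.57 (adjusted p = 0.017), just under 1.5-fold. ADAMTS9, also a proteoglycanase, was at 9.93, 9.62 and 11.7 FPKM in shCtr and 15.4, 17.4 and 13.8 FPKM in shZNF148. Its adjusted p passed (0.0319), and its log2 fold change of 0.53 was under 1.5-fold. The remaining proteoglycanases were below the minimum in these cells.

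ADAMTS16, known from kidney and gonad development, was at 8.85, 6.41 and 8.74 FPKM in shCtr and at 4.77, 4.20 and 5.30 FPKM in shZNF148. The gap between the groups was small, since shCtr replicate 2 lay near the knockdown values. The mean fell from 7.999 ± 1.38 to 4.76 ± 0.547 FPKM (n = 3 each, SD), a log2 fold change of -0.64 (SE 0.14, limma adjusted p = 0.0349). ADAMTS16 was the least stable of the called members and lost its call under 7 of 16 settings. Its log2 fold change was under 1.5-fold without shZNF148 replicate 2 (-0.57, adjusted p = 0.0575), and without shZNF148 replicate 1 or 3 it was -0.64 (adjusted p = 0.0808) or -0.70 (adjusted p = 0.05).

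ADAMTS6, which acts on extracellular microfibrils, was at 7.92, 8.65 and 7.08 FPKM in shCtr and 3.92, 1.42 and 4.57 FPKM in shZNF148. Every knockdown value was lower than every control, and replicate 2 was far below the rest. At -1.13, its log2 fold change was large but uneven (SE 0.30) and did not pass (adjusted p = 0.0545). Without shZNF148 replicate 2 it was smaller, at -0.76, and called (adjusted p = 0.0161), and without replicate 3 it was -1.36 and called (adjusted p = 0.0487). ADAMTS12, an enzyme that cuts cartilage oligomeric matrix protein, was at 13.1, 14.5 and 14.3 FPKM in shCtr and 16.6, 16.8 and 16.1 FPKM in shZNF148. Its log2 fold change was 0.23 (adjusted p = 0.0742). ADAMTS17, untested and chosen after its values were seen, was at 0.256, 0.134 and 0.122 FPKM in shCtr and 0.502, 0.894 and 0.522 FPKM in shZNF148.

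Among the inhibitors, TIMP3 rose while TIMP1 and TIMP2 did not pass the test. TIMP3 is held in the matrix and is known as the TIMP with the widest reach over ADAMs and ADAMTS enzymes. It was at 60.3, 63.2 and 56.8 FPKM in shCtr and at 128, 166 and 115 FPKM in shZNF148. Each knockdown value was above all controls, and replicate 2 was the highest. The mean rose from 60.1 ± 3.22 to 136 ± 27.0 FPKM (n = 3 each, SD), to 227% of the control, with a log2 fold change of 1.15 (SE 0.14, limma adjusted p = 0.0108). Without shZNF148 replicate 2 its log2 fold change was 1.00 (adjusted p = 0.00341). SYN3, within which TIMP3 lies on the opposite strand, did not exceed 0.126 FPKM.

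TIMP1, a soluble inhibitor of most MMPs, was the most abundant member of all, at 443, 465 and 420 FPKM in shCtr and 402, 463 and 339 FPKM in shZNF148. Its groups overlapped (log2 fold change -0.15, adjusted p = 0.395), and the 95% interval of the fold change ran from 0.742 to 1.09. TIMP2, which also takes part in activating pro-MMP2 with MMP14, had 2 rows. The higher row was at 154 ± 12.3 FPKM in shCtr and 158 ± 29.0 FPKM in shZNF148 (n = 3 each, SD; log2 fold change 0.03, adjusted p = 0.905), and the lower row at 125 ± 8.30 and 105 ± 15.1 FPKM (log2 fold change -0.25, adjusted p = 0.158). The second row of TIMP2 was not counted among the members tested. TIMP4, which was too low to test, was at 0.314, 0.144 and 0.298 FPKM in shCtr and 0.0694, 0 and 0.0974 FPKM in shZNF148.

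The make-up of each family followed from these changes. Family sums and shares take in all rows of a symbol, so both rows of TIMP2, MMP24 and MMP25 are counted in them. TIMP3 was 7.69% ± 0.0664 of the summed TIMP FPKM in shCtr and 17.0% ± 0.619 in shZNF148 (n = 3 each, SD), while the sum itself was 782 ± 45.5 and 800 ± 130 FPKM. The ratio of TIMP3 to TIMP1 was 0.136, 0.136 and 0.135 in shCtr and 0.318, 0.36 and 0.338 in shZNF148. This ratio was more even within each group than either transcript alone.

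The summed FPKM of the ADAMs was 416 ± 6.30 in shCtr and 311 ± 12.5 in shZNF148, and the share of ADAM9 was 39.0% ± 1.33 and 25.4% ± 5.95 (n = 3 each, SD). ADAM10 and ADAM15, whose levels were near those of the controls, made up 18.6% and 15.9% of the sum in shCtr and 23.6% and 21.5% in shZNF148. The ratio of TIMP3 to ADAM9 was 0.386, 0.389 and 0.336 in shCtr and 1.39, 3.02 and 1.25 in shZNF148. The TIMP3 transcript was the less abundant of this pair in all controls and the more abundant in all knockdown libraries. The pair joins a called member that rose and a called member that fell, so its ratio restates those changes. It compares transcript levels only and is not a measure of inhibition of ADAM9 by TIMP3, which was not tested.

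The summed FPKM of the MMPs was 541 ± 18.3 in shCtr and 451 ± 75.3 in shZNF148, with MMP14 at 65.0% and 62.5% of it. Without the uncertain MMP24 rows the sums were 394 ± 14.6 and 308 ± 53.2 FPKM. MMP1 was 3.08% of the MMP sum in shCtr and 0.911% in shZNF148, and MMP8 was 0.158% and 0.906%. The ADAMTS sum was 55.6 ± 1.43 and 66.2 ± 5.86 FPKM, within which the share of ADAMTS15 was 25.3% and 36.9% and that of ADAMTS6 14.2% and 5.16%. No test was made on sums or shares.

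**Figure D2:**
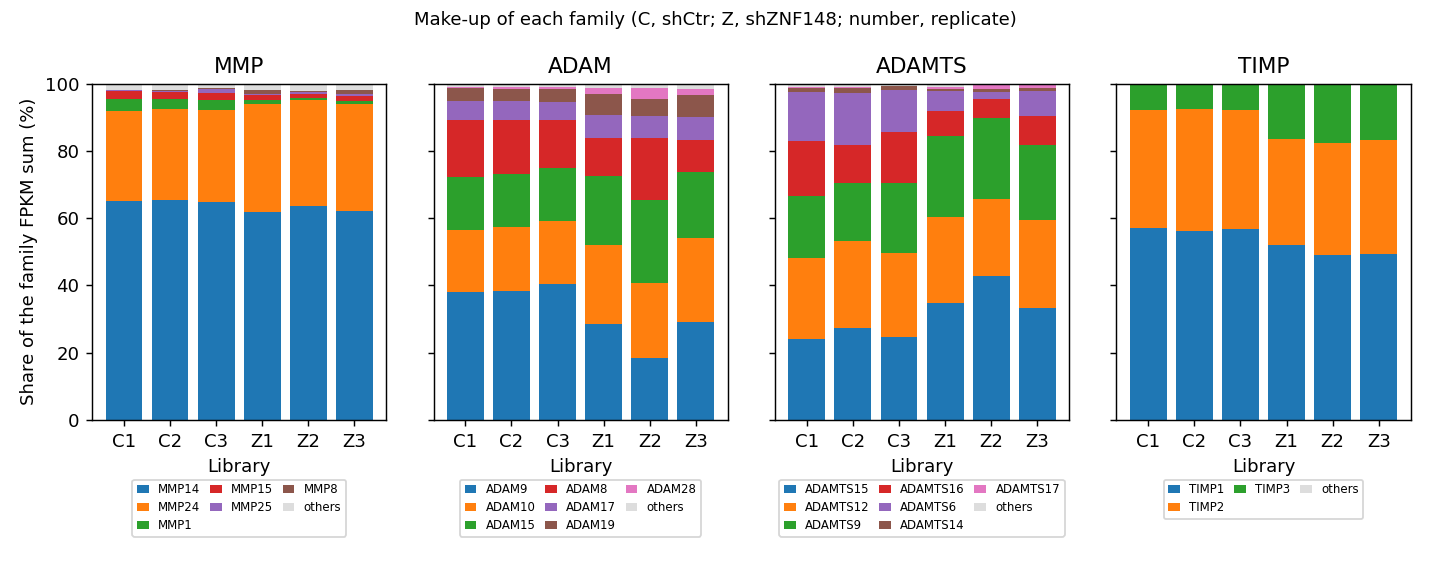
Stacked bars give the share of each member in the summed FPKM of its family (vertical axis, percent) in each library, with C1 to C3 for shCtr and Z1 to Z3 for shZNF148. MMP14 stays near 65.0% to 62.5% of the MMP sum, ADAM9 goes from 39.0% to 25.4% of the ADAM sum, and TIMP3 from 7.69% to 17.0% of the TIMP sum.

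Members below the minimum mean were close to the floor of the table. Of the 29, 19 stayed under 0.2 FPKM in every library and the highest single value was 1.23 FPKM. Groups did not overlap in ADAM1 and ADAMTS17, which were higher in shZNF148, and in ADAM32 and TIMP4, which were lower. The share of all untested rows without overlap was not computed, so this is not read as a result about these members. In ADAM32 the nearest values were 0.0408 FPKM in shCtr and 0.0393 FPKM in shZNF148, at the floor. The 15 entries listed at 0 throughout included the matrilysins MMP7 and MMP26, the stromelysin MMP10, the enamel protease MMP20 and the aggrecanase ADAMTS5.

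Replicate 2 of shZNF148 had the highest or the lowest value of its group in 23 of the 25 tested members (92.0%), 14 times the highest and 9 times the lowest, against 78.4% of all tested rows. The median SD of the tested members on the log2 scale was 0.107 in shCtr and 0.248 in shZNF148, against 0.0943 and 0.137 over all tested rows. The same library had the lowest ZNF148 value, 0.282 FPKM, against 0.914 and 0.834 FPKM in replicates 1 and 3. Without it, 3 members were called higher and 5 lower, with ADAM8 and ADAMTS6 added and ADAMTS15 and ADAMTS16 lost.

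More calls were lost when a control library was left out. Without shCtr replicate 1 or without shCtr replicate 3, MMP1 was the only member called, while over all rows the calls went from 216 higher and 431 lower to 3 and 26 without replicate 1 and to 7 and 40 without replicate 3. Without shCtr replicate 1, the adjusted p from limma was 0.0661 for ADAM28, MMP15 and TIMP3, 0.0813 for MMP8, 0.0932 for ADAM9, 0.116 for ADAMTS15 and 0.125 for ADAMTS16. Without shCtr replicate 3 it was 0.0579 for ADAM28, MMP15 and TIMP3, 0.0617 for MMP8, 0.0889 for ADAM9, 0.1 for ADAMTS15 and 0.116 for ADAMTS16. Without shCtr replicate 2, the calls of MMP8 (adjusted p = 0.0546), ADAM9 (0.0702) and ADAMTS15 (0.072) were lost, and without shZNF148 replicate 1 those of ADAMTS15 (0.064) and ADAMTS16 (0.0808). The log2 fold change of each called member kept its sign in all of these fits. By exact permutation (two-sided), p was 0.1 for each of the 8 called members, the smallest value that 3 libraries against 3 allow.

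Genes that work with these proteases were read from 4 lists, of activators and other inhibitors, of ADAM cofactors and ADAMTS-like proteins, of membrane proteins known to be shed by ADAMs, and of matrix proteins cut by MMPs or ADAMTS enzymes. Of 84 genes listed, 54 were tested, and 2 rose and 9 fell, beside 1.83% of all tested rows called higher and 3.66% lower. The median log2 fold change was -0.18, beside 0.01 over all tested rows. Both called increases were among the shed proteins, and the matrix list held only decreases among its called genes.

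ADAMTSL4, an ADAMTS-like protein without protease domain that binds fibrillin microfibrils, had the largest log2 fold change of the called genes in these lists on the log2(FPKM + 1) scale. It was at 18.5, 21.9 and 17.2 FPKM in shCtr and at 4.83, 4.61 and 5.17 FPKM in shZNF148. Its log2 fold change was -1.78 (SE 0.10, limma adjusted p = 0.00318), and ADAMTSL4 was called with any single library left out. It was the only called gene among the 12 tested cofactors and ADAMTS-like proteins.

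Among 21 tested shed proteins, the membrane-bound chemokine CX3CL1 and the EGF receptor ligand EREG rose, and the heparan sulfate carrier SDC1 and the receptor MET were called lower. CX3CL1 was at 10.3, 10.2 and 9.13 FPKM in shCtr and at 20.4, 51.2 and 19.6 FPKM in shZNF148 (log2 fold change 1.39, adjusted p = 0.045). Replicate 2 was far above the rest, and without it the log2 fold change was 0.95 (adjusted p = 0.00441). CX3CL1 was not called without shCtr replicate 1, 2 or 3 (adjusted p = 0.132, 0.105 and 0.131) or without shZNF148 replicate 1 (0.0653), nor with the replicate number as a block (0.0622). EREG had a log2 fold change of 0.92 (adjusted p = 0.0356), and was not called without shCtr replicate 1 or 3 (adjusted p = 0.122 and 0.114) or without shZNF148 replicate 1, 2 or 3 (0.0729, 0.0597 and 0.0559). With no filter on low values neither CX3CL1 (adjusted p = 0.0685) nor EREG (0.0556) was called. SDC1 fell from 37.2 ± 2.99 to 19.0 ± 2.10 FPKM (n = 3 each, SD; log2 fold change -0.93, adjusted p = 0.0099), and its call was lost without shCtr replicate 1 (0.0636). MET had a log2 fold change of -0.68 (adjusted p = 0.0168) and was not called without shCtr replicate 1, 2 or 3 (0.0787, 0.0563 and 0.0702), and without shZNF148 replicate 2 its log2 fold change of -0.57 was under 1.5-fold.

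Of 11 tested matrix substrates, 4 fell, and all 4 are components of basement membranes. COL4A1 and COL4A2, the chains of the common type IV collagen, had log2 fold changes of -0.98 and -0.72 (adjusted p = 0.0233 and 0.0103), AGRN, a heparan sulfate proteoglycan, had -0.71 (adjusted p = 0.0212), and HSPG2, perlecan, had -0.60 (adjusted p = 0.0337). COL4A1 was at 25.4, 25.3 and 26.1 FPKM in shCtr and at 14.9, 9.00 and 14.5 FPKM in shZNF148. Leaving out shCtr replicate 1, 2 or 3 ended the calls of COL4A1 (adjusted p = 0.094, 0.0683 and 0.0889) and AGRN (0.0935, 0.0601 and 0.0838), and leaving out shCtr replicate 1 or 3 that of COL4A2 (0.0661 and 0.0559). AGRN was also not called without shZNF148 replicate 1 (0.0593) or with the block (0.0567). HSPG2 was not called without shCtr replicate 1, 2 or 3 (0.119, 0.0946 and 0.0903), without shZNF148 replicate 1 or 3 (0.0836 and 0.0567) or with no filter on low values (0.0505), and its change was under 1.5-fold with a pseudocount of 5 FPKM (-0.54) and under quantile normalization (-0.58).

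Of 10 tested activators and other inhibitors, 2 fell and none rose. PLAT, the tissue plasminogen activator, was at 110, 112 and 98.9 FPKM in shCtr and at 70.8, 56.7 and 70.8 FPKM in shZNF148 (log2 fold change -0.69, limma adjusted p = 0.0172). It was not called without shCtr replicate 1, 2 or 3 (adjusted p = 0.0828, 0.0563 and 0.0631) or with the replicate number entered as a block (0.0503).

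**Figure D3:**
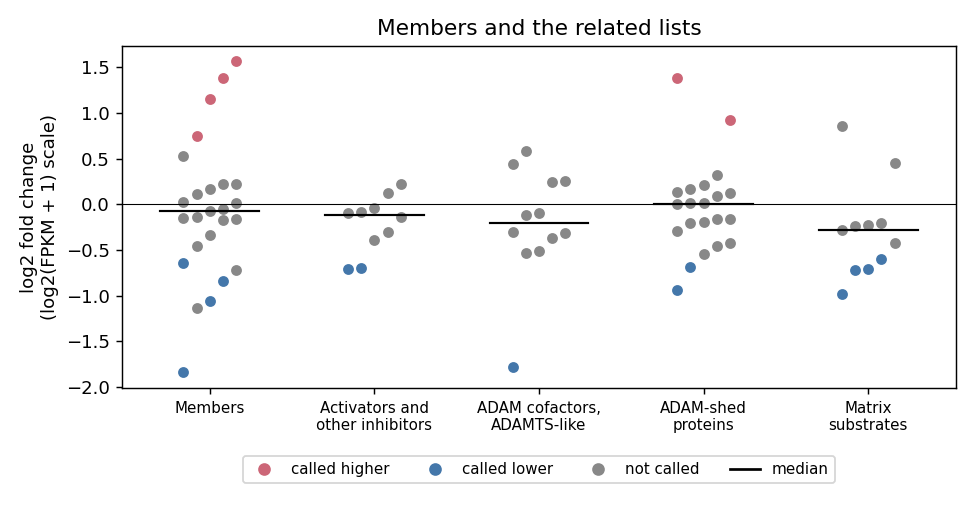
The log2 fold change of shZNF148 over shCtr (vertical axis, log2(FPKM + 1) scale) is plotted for each tested gene of the members and of the 4 related lists, with colors for the call and a line at the median of each list. Both called increases outside the members are shed proteins, and the lowest point outside the members is ADAMTSL4 at -1.78.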

How the data were processed

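RNA-seq of 6 MDA-MB-231 samples (3 shCtr, 3 shZNF148) was used, with groups and replicate numbers taken from the sample labels. The authors deposited FPKM values in 1 table, 1 column a sample, of which 0 were left unused. The submitters' processing notes name bcl2fastq 2.17.1.14, TopHat2 2.0.14, Cufflinks 2.2.1 and Cuffnorm 2.2.1 with the builds hg18 and hg19, whereas the study's methods name GRCh38, Salmon and DESeq2 for its own calls. Which of these made the FPKM values, and whether counting used strand, is not given in the sources used here. Overlapping partners were therefore looked up in GENCODE release 44, and only the MMP24 row was treated as uncertain. Other members, among them MMP1, ADAM28, MMP25 and TIMP2, also overlap an annotated gene whose level is not given here. Reads shared with those partners were not tested.

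The 11777 rows whose mean reached 1 FPKM were fitted on log2(FPKM + 1) with limma 3.58.1 (R 4.3.3), using condition alone as a term, eBayes with a trend and Benjamini-Hochberg adjustment over all tested rows. Where a symbol had 2 rows, the row with the higher mean stood for the member, except in the family sums and shares, which took in both. The fit was tested on simulated data. The other steps ran in Python 3.11.15 (pandas 2.3.3, numpy 2.4.6, matplotlib 3.10.9). Nothing in the labels states that replicates were separate cultures, so p-values measure the spread between these samples, which may be technical.

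The members, the related lists and the tests were chosen with earlier results of these data known. The text names ZNF148, called members, tested members with a mean of at least 5 FPKM, the 3 largest changes in each direction, all TIMPs, untested members reaching 1 FPKM, and up to 8 called genes of the related lists. Further genes were named, after their values were seen, to account for the rest of each family or a count. A gene covered by this rule is not reported here, and stays in the counts. Promoters were taken from RefSeq (GRCh38.p14), and protein sequences were not analysed here. A search of protein motifs that had been planned was not run. Alternatives covered the filter, the pseudocount, the scaling, the variance trend, rows sharing a symbol, rows listed at 0, the replicate number as a block and leaving out each replicate.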

Additional observations from a re-analysis of the deposited data

How the results depend on the processing

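Of the 8 called members, 8 kept their call with a pseudocount of 0.1 FPKM, with median scaling, quantile normalization, no variance trend, rows of one symbol summed and rows listed at 0 left out, and no called member changed sign under any setting in which it was tested. With no filter on low values or a pseudocount of 5 FPKM, 7 were kept and ADAMTS16 was lost. With a minimum mean of 5 FPKM, 2 members were called higher, since ADAM28 and MMP8 were no longer tested. With rows listed at 0 left out, ADAM8 (adjusted p = 0.0474) and ADAMTS6 (0.0367) were called as well. With each replicate left out in turn, between 0 and 5 members were called higher and between 1 and 5 lower, and the log2 fold change of ZNF148 ran from -1.74 to -1.45 (adjusted p at most 0.0603). In the related lists, between 0 and 2 genes were then called higher and between 1 and 9 lower. With no filter on low values 0 of the related genes were called higher, and with a pseudocount of 5 FPKM or no variance trend 1 was. The log2 fold changes of ADAM15, MMP24 and TIMP2, which were near 0, took either sign.

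The replicate numbers shared by the groups were not taken to pair the samples, since the deviations of same-numbered samples correlated at 0.00104, -0.0881 and 0.0304. The row that joins ERBB2 and MIR4728 was an exception, being high in replicate 2 of both groups (126 and 125 FPKM, against 20.1 to 24.8 FPKM in the other 4 libraries). When this number entered as a replicate block, 4 members were called higher and 4 lower, all 8 of them as before, while over all rows the calls went from 216 higher and 431 lower to 99 and 216. Read numbers are unknown, so no counting error can be given, and values near 0 are the least certain. Changes in transcript level say nothing here of enzyme activity, which depends on activation and on inhibitors.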
